A study of Mus musculus with 6 samples.

Results

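Immediate early genes are the genes that a cell transcribes first after a stimulus, without new protein synthesis. The set described here holds 10 of them: *Fos*, *Fosb*, *Jun*, *Junb*, *Atf3*, *Egr1*, *Egr2*, *Ier2*, *Dusp1* and *Zfp36*. Their rows were taken by gene name from a table of FPKM values (fragments scaled to transcript length and to mapped fragments) with 38553 genes, in which each name occurred once. The samples were microdissected craniofacial tissue of mouse embryos at E12.5, 3 controls and 3 mutants. Controls were *Rbfox2* flox/flox, with no Cre allele in their label. Mutants were *Pax3* Cre/+ with *Rbfox2* flox/flox, so the floxed *Rbfox2* alleles were shared by both groups, and only the mutants carried Cre and had lost 1 copy of *Pax3* to the knock-in. *Pax3* Cre is active in the neural crest before and during migration, but it also acts in the somites and the mesoderm that forms them, and the dissected tissue holds cells outside these lineages. The replicates were stated to be independent biological samples, and whether a sample was 1 embryo or a pool is not given in the sources used here.

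Serum, growth factors, stress and membrane depolarization activate MAP kinases and calcium signaling, which act on factors already present in the nucleus. SRF with its ELK partners binds the CArG box of the serum response element, and CREB binds the cAMP response element (CRE). The transcripts appear within minutes and decay fast, in part through AU-rich elements in their 3'UTRs. Fos, Fosb, Jun, Junb and Atf3 are bZIP proteins that pair to form AP-1 and related dimers, Egr1 and Egr2 are zinc finger factors, and Ier2 is a small nuclear protein. Dusp1, a phosphatase of MAP kinases, and Zfp36 (tristetraprolin), which binds AU-rich elements and speeds mRNA decay, feed back on the response. *Egr2* is also known as *Krox20*, a patterning gene of the hindbrain and a factor of Schwann cells. Since handling of tissue can induce such genes, their levels are also read as a gauge of how samples were collected.

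Promoter sequences are shown because CRE and CArG elements are known sites of stimulus-dependent induction in such genes, and the TATA box because it marks the core promoter. RefSeq promoters, from 250 bases before to 50 bases after a listed start (GRCm38.p6), were found for 8 of the 10 genes. The CRE core (TGACGT, both strands) was present in *Fos*, *Atf3*, *Egr2* and *Dusp1*, which is 4 of 8 genes, against 8.37% of the 27025 genes in the promoter table. The CArG box (both strands) was present in *Egr2* and *Zfp36*, and 1.81% of all genes hold it. A further CArG match of *Egr2*, in another of its listed windows (chr10:67537484-67537513), is not printed below. Elements more than 250 bases before a start lie outside the search, so a gene without a match may still hold one there. The TATA box (TATAAA, sense strand) was present in *Fos* and *Junb*, and in 9.77% of all genes. The match in *Junb*, not printed below, began at 0, on the listed start itself. The AP-1 site (TGACTCA, with its reverse complement TGAGTCA) was present in 0 of 8 genes, and in 5.95% of all genes. In the sequences below, printed 5′ to 3′ on the strand of the gene, the capitals mark the element.
Fos CRE core: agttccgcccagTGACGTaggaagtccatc
Fos TATA box: tcacagcgcttcTATAAAggcgccagctga
Atf3 CRE core: attaatagcattACGTCAgcctgggattgg
Egr2 CRE core: atatgggcagcgACGTCAcgggtattgaag
Egr2 CArG box: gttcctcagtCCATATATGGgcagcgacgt
Dusp1 CRE core, distal: ctcctaggccgaTGACGTctttgcttttgg
Dusp1 CRE core, proximal: cggtagggcgggTGACGTcaccgcccggtc
Zfp36 CArG box: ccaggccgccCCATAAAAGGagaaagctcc
The *Fos* windows were chr12:85473812-85473841 and chr12:85473845-85473874 on the plus strand, with the CRE core starting at -66 and the TATA box at -33 from the start site. The *Atf3* window was chr1:191183324-191183353 on the minus strand, with the element at -8. For *Egr2*, which had 5 listed promoter windows, the printed CRE and CArG windows were chr10:67537801-67537830 and chr10:67537787-67537816 on the plus strand, so that the elements lie next to each other at -56 and -72. The *Dusp1* windows were chr17:26508646-26508675 and chr17:26508598-26508627 on the minus strand, with elements at -191 and -143. The proximal *Dusp1* element runs on so that its reverse complement ACGTCA overlaps it, starting at -141, and the search matched it once on each strand. The *Zfp36* window was chr7:28379267-28379296 on the minus strand, with the element at -58. A match is a description of these letters and says nothing of binding in this tissue.

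The 3'UTRs carried the core heptamer of AU-rich elements, written TATTTAT in DNA letters, in 6 of the 10 genes. In the longest coding transcript of each gene (GENCODE M21, GRCm38), *Dusp1* and *Zfp36* held 3 matches, *Fos* held 2, and *Fosb*, *Jun* and *Atf3* held 1. Of 9721 genes that passed the expression filter and had an annotated 3'UTR, 30.3% had a match, and the density was 1.05 matches per kilobase in the 10 genes against 0.28 in those genes. The following windows show the matches (capitals) in *Fos* and in the gene whose own product binds such elements.
Fos, 3'UTR base 656: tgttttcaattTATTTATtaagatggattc
Fos, 3'UTR base 680: ggattctcagaTATTTATatttttatttta
Zfp36, 3'UTR base 575: agtgggcccttTATTTATgacgactttatt
Zfp36, 3'UTR base 590: tatgacgacttTATTTATtgtattaagatt
Zfp36, 3'UTR base 615: agattttatagTATTTATatatattgggtc
*Fos* is at chr12:85473890-85477273 on the plus strand and *Zfp36* at chr7:28376784-28380253 on the minus strand. The genes were short in structure. All 10 had at most 4 exons in this transcript, compared with 19.5% of 9771 coding genes that passed the filter, and *Jun*, *Junb* and *Ier2* had a single exon, compared with 2.09%. In exons, *Jun* overlaps *Junos*, *Junb* overlaps *Prdx2*, *Dusp1* overlaps *Ergic1* and *Zfp36* overlaps *Gm44710*, each on the other strand. The library kit keeps the strand, but the setting used in counting is not given in the sources used here, so the values of these 4 genes are uncertain to that extent.

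The labels were first checked on the targeted gene. *Rbfox2* was at 58.4, 65 and 61.3 FPKM in control replicates 1, 2 and 3 and at 38.1, 36.3 and 34.3 FPKM in the mutants, 58.8% of the control mean, with no overlap between the groups (log2 fold change -0.75, limma adjusted p = 0.138). *Pax3* was at 77.1% of the control mean. All 8 markers of cranial mesenchyme were present, with summed levels of 391 to 426 FPKM in controls and 348 to 434 FPKM in mutants. On the first principal component, with 54.7% of the variance, replicate 1 of each group was far from the other 4 samples (-19.1 and -17 against 7.55 to 11). Mutant replicates 1 and 2 expressed Y-linked genes (summed FPKM 57.7 and 55.5) and the other 4 samples did not (at most 0.217). Markers of neurons moved with genotype. Their summed level was 626 to 718 FPKM in controls and 774 to 864 FPKM in mutants, 4 of 6 had an unadjusted limma p under 0.05, all of them higher in mutants (background 0.706% of the 10061 genes tested), and none was at 0 in all samples. Markers of skeletal muscle and epithelium leaned the other way. All 5 tested muscle markers had a lower mean in mutants (median log2 fold change -0.38), with summed levels of 89.2, 239 and 150 FPKM in controls and 84.1, 140 and 109 FPKM in mutants. All 6 epithelial markers had a lower mean in mutants (median log2 fold change -0.20), with sums of 109, 191 and 162 FPKM in controls and 107, 149 and 108 FPKM in mutants. The groups overlapped in both sums. An unadjusted limma p under 0.05 for lower values was reached by 0 muscle and 0 epithelial markers (background 0.954% of genes tested). With the replicate block it was reached by 4 of 5 and 2 of 6 (background 372 of 10061 genes, lower in mutants). Markers of erythroid cells, of which 5 of 7 listed were found by name, had overlapping sums of 4566 to 8904 FPKM in controls and 6341 to 9066 FPKM in mutants. All 4 tested erythroid markers had a higher mean in mutants (median log2 fold change 0.37). An unadjusted limma p under 0.05 was reached by 0 of the 4, and by 2 with the replicate block (background 232 of 10061 genes, higher in mutants). The part of these differences in the values below was not tested, and in bulk tissue fewer cells of a type and less RNA per cell cannot be told apart.

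The 10 genes spanned a wide range of levels in this tissue. Averaged over the 6 samples, the order was *Jun* (34.4 FPKM), *Ier2* (26.7), *Dusp1* (12), *Zfp36* (5.03), *Egr1* (2.69), *Junb* (2.36), *Atf3* (0.966), *Fos* (0.794), *Egr2* (0.264) and *Fosb* (0.063). The mean of *Jun* was 545 times that of *Fosb*. Thus 3 genes were above 10 FPKM, 3 lay between 1 and 6, and 4 were under 1, among them *Fos*, the gene most often used as the marker of a recent stimulus. Of the 23063 genes with a value above 0 in any sample, 86.9% had a lower mean than *Jun* and 38.7% a lower mean than *Fos*. Of the 9 neighbouring pairs in this order, 3 had overlapping ranges over the samples: *Jun* with *Ier2*, *Egr1* with *Junb*, and *Atf3* with *Fos*. Within single samples, *Jun* exceeded *Ier2* and *Atf3* exceeded *Fos* in all 6, and *Egr1* exceeded *Junb* in 5 of 6. The other neighbours did not overlap.

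**Figure D1:**
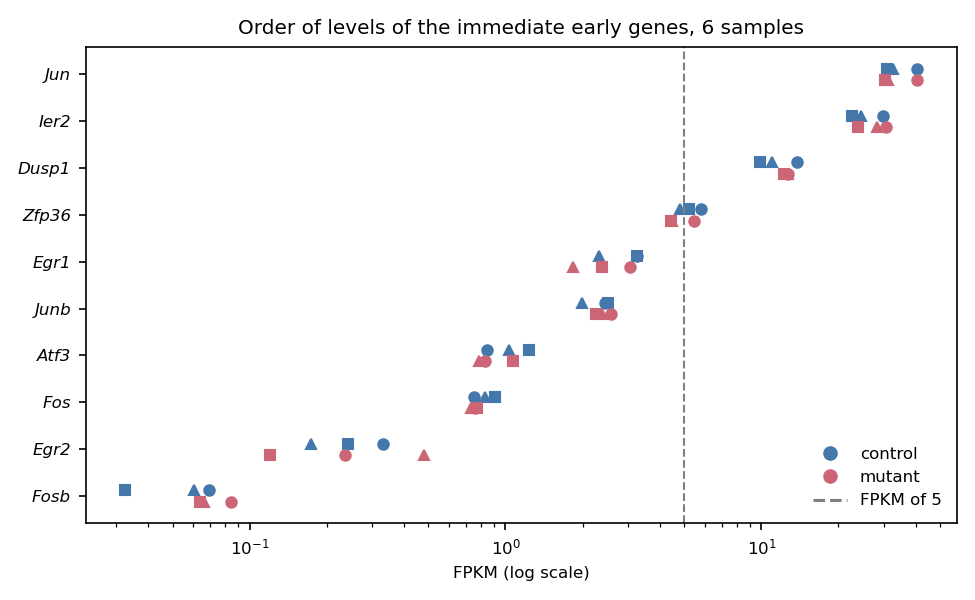
FPKM (log scale, x axis) of each immediate early gene (y axis, ordered by mean) in 3 control (blue) and 3 mutant (red) samples, with circles, squares and triangles for replicates 1, 2 and 3 and a dashed line at the filter of 5 FPKM. *Jun*, *Ier2* and *Dusp1* lie wholly above the line, *Zfp36* straddles it and the other 6 genes lie below it.

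To ask whether loss of *Rbfox2* was accompanied by a different immediate early response, mutants were compared with controls. None of the 10 genes differed between the groups beyond the spread of the samples. In all 10, the difference between the means was smaller than the larger of the 2 group SDs. The values of controls and mutants overlapped in all 10. The count without overlap was thus 0 of 10, beside 5% of the 10061 genes above the filter and 6.34% of all 23063 detected genes. At such low shares, a count of 0 does not set the 10 genes apart from other genes. Group means were higher in mutants for 5 genes and lower for 5. The filter, an FPKM over 5 in all controls or all mutants, kept 3 of the 10, *Jun*, *Ier2* and *Dusp1*. The fold changes of the other 7 were taken from the fit without a filter. Because the log2 scale was that of FPKM + 1, they understate relative differences, most of all in the genes under 1 FPKM. An unadjusted p under 0.05 was reached by 0 of the 3 tested genes (background 1.66% of genes tested, 0.706% higher and 0.954% lower in mutants) and by 0 of 10 without the filter (background 2.87%). A log2 fold change past 1 with such a p was seen in 0 of the 3 (background 0.0298%). These counts of 0 are also near the background and do not set the members apart. No gene of the table passed an adjusted p of 0.05 in limma (0 of 10061, background 0%), while 167 had an unadjusted p under 0.05, and 604 with the replicate block, under which the members' count was still 0.

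**Figure D2:**
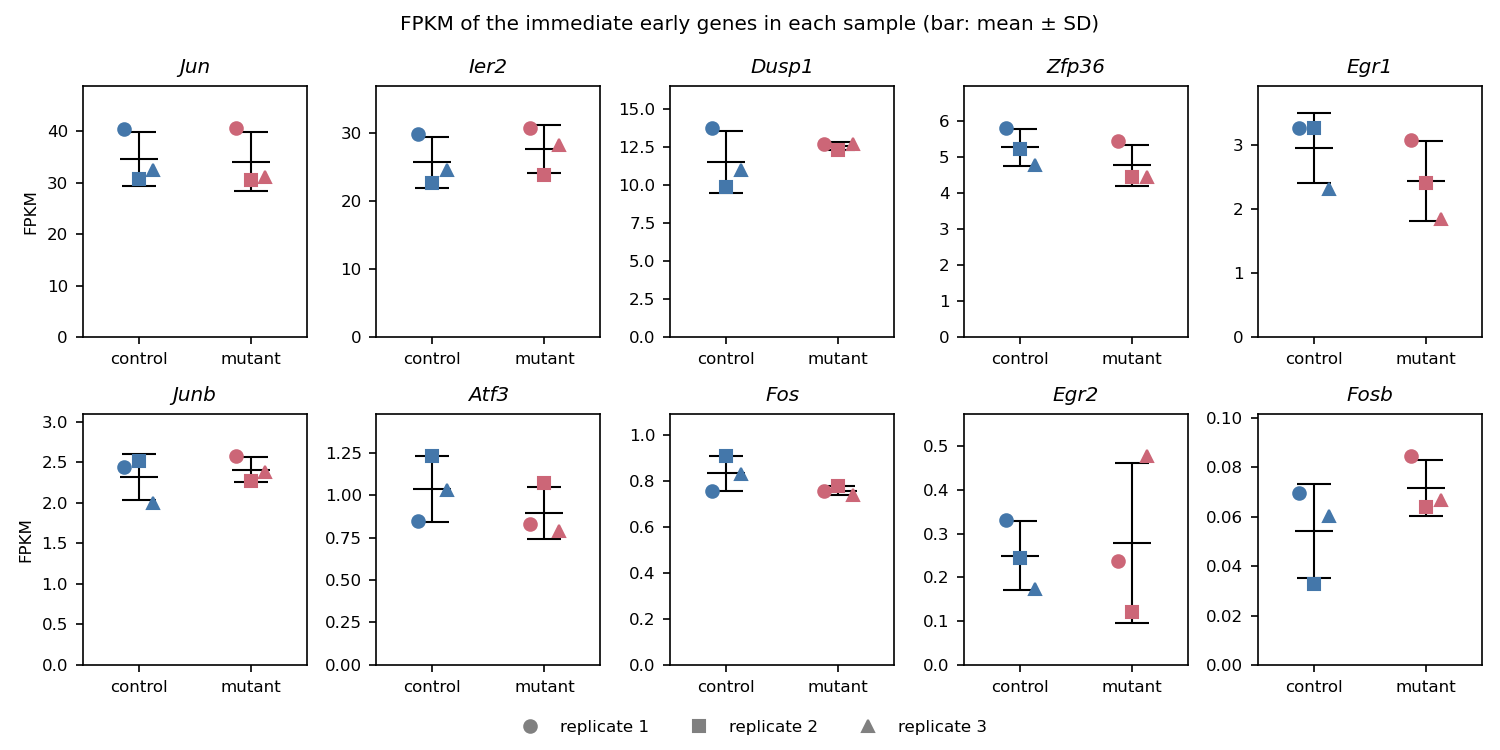
FPKM (y axis, from 0, with a scale of its own for each gene) of the immediate early genes in control and mutant samples. Circles, squares and triangles are replicates 1, 2 and 3, and the black bars give the mean ± SD (n = 3 per group); the points of the 2 groups overlap in all 10 panels.

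Among the AP-1 subunits, *Jun*, the principal DNA-binding partner of the Fos proteins, was by far the most abundant of the 5. It was at 40.5, 30.8 and 32.6 FPKM in control replicates 1, 2 and 3 and at 40.7, 30.5 and 31.1 FPKM in mutant replicates 1, 2 and 3. The first replicates of both groups were the high samples and the same-numbered samples lay close together. The means were 34.6 ± 5.18 FPKM in controls and 34.1 ± 5.72 FPKM in mutants (SD, n = 3), a log2 fold change of -0.024 (SE 0.15, 95% interval -0.37 to 0.32, limma adjusted p = 1). With the replicate number as a block the SE of *Jun* was 0.051 and the interval -0.15 to 0.10. *Jun* thus had the narrowest bound of the 3 tested genes under the block.

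*Fos*, whose protein dimerizes with Jun, was at 0.756, 0.909 and 0.831 FPKM in controls and at 0.757, 0.776 and 0.736 FPKM in mutants. The mutant samples lay within a narrow band whose upper part overlapped the lowest control. The means were 0.832 ± 0.0765 FPKM and 0.756 ± 0.0201 FPKM (SD, n = 3), so that mutants were at 90.9% of controls, and the log2 fold change was -0.06 (95% interval -0.21 to 0.089, exact two-sided permutation p = 0.3). *Fos* also had the smallest ratio of the highest to the lowest of the 6 samples in the set, 1.24. Its relative *Fosb*, at 0.0695, 0.0327 and 0.0605 FPKM in controls and 0.0848, 0.064 and 0.0667 FPKM in mutants, was close to 0 in all samples, with the lowest value in control replicate 2. The mutant mean of *Fosb* was 132% of the control mean, and the log2 fold change was 0.024 (95% interval -0.033 to 0.081). The mutant lay above the control in each same-numbered pair for *Fosb* (log2 differences 0.021, 0.043 and 0.0083). Here and for the genes below, the share of all genes with the same direction in every pair was not counted. Such agreement only describes the values.

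*Junb*, a Jun relative that often counters Jun, was at 2.44, 2.52 and 1.99 FPKM in controls and at 2.58, 2.26 and 2.38 FPKM in mutants. Control replicate 3 was the lowest sample and the mutants lay on both sides of the other 2 controls (log2 fold change 0.042, 95% interval -0.23 to 0.31). *Atf3*, a stress-induced factor, was at 0.848, 1.23 and 1.03 FPKM in controls and at 0.832, 1.07 and 0.787 FPKM in mutants. The mutant mean of *Atf3* was 86.4% of the control mean (log2 fold change -0.10, 95% interval -0.35 to 0.15). The mutant of each number lay below the control of that number for *Atf3*, by a log2 difference of -0.012, -0.11 and -0.18.

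Within the 2 families, Jun transcripts (*Jun*, *Junb* and *Jund*) outweighed Fos transcripts (*Fos*, *Fosb*, *Fosl1* and *Fosl2*) in every sample. The summed FPKM of the Jun family was 74.4, 56.1 and 57.8 in controls and 71.7, 58.2 and 57.8 in mutants. The summed FPKM of the Fos family was 4.6, 5.42 and 4.9 in controls and 4.92, 4.61 and 4.15 in mutants. The ratio of the sums lay between 10.3 and 16.2 and overlapped between the groups.

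Of the zinc finger factors, *Egr1*, a direct target of SRF and ELK, had the largest difference of the 10 on this log2 scale when all 6 samples were used. It was at 3.26, 3.25 and 2.32 FPKM in controls and at 3.07, 2.39 and 1.84 FPKM in mutants. Mutant replicate 3 was the lowest sample, control replicates 1 and 2 were the highest, and mutant replicate 1 lay above control replicate 3. The means were 2.94 ± 0.543 FPKM and 2.44 ± 0.619 FPKM (SD, n = 3), a log2 fold change of -0.20 (SE 0.18, 95% interval -0.64 to 0.23, exact two-sided permutation p = 0.3). The mutant was below the control in each of the 3 same-numbered pairs (log2 differences -0.064, -0.33 and -0.22), and with the block the interval of *Egr1* still held 0 (-0.50 to 0.086). The log2 fold change of *Egr1* ranged from -0.34 (without mutant replicate 1) to -0.075 (without mutant replicate 3) with a sample left out, and without control replicate 1 it was -0.14, smaller in size than that of *Dusp1* (0.25), *Ier2* (0.21) and *Atf3* (-0.17). With a covariate for the Y-linked genes its log2 fold change was -0.47 (95% interval -1.05 to 0.11).

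*Egr2* was the most variable of the set. It was at 0.331, 0.244 and 0.174 FPKM in controls and at 0.237, 0.12 and 0.478 FPKM in mutants, so that both the lowest and the highest samples were mutants. The highest value was 3.98 times the lowest. The log2 fold change was 0.025 (95% interval -0.24 to 0.29), and with a pseudocount of 0.1 in place of 1 the interval of *Egr2* was -0.90 to 0.95. With the Y-linked covariate its log2 fold change was 0.25 (95% interval -0.0045 to 0.50).

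*Ier2*, the second most abundant member, was at 29.9, 22.6 and 24.6 FPKM in controls and at 30.8, 23.8 and 28.3 FPKM in mutants. As with *Jun*, the first replicates of both groups were the highest samples. The means were 25.7 ± 3.79 FPKM and 27.6 ± 3.52 FPKM (SD, n = 3), with a log2 fold change of 0.10 (SE 0.13, 95% interval -0.21 to 0.42, limma adjusted p = 1). The mutant was above the control in each same-numbered pair for *Ier2* (log2 differences 0.039, 0.073 and 0.20), and with the block the interval was -0.043 to 0.25.

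The feedback regulators moved in opposite directions, neither beyond the spread. *Dusp1* was at 13.8, 9.85 and 11 FPKM in controls and at 12.7, 12.3 and 12.7 FPKM in mutants. The mutants were close to each other and lay between control replicate 1, the highest sample, and the other 2 controls. The *Dusp1* means were 11.5 ± 2.02 FPKM and 12.6 ± 0.243 FPKM (SD, n = 3), with a log2 fold change of 0.13 (SE 0.12, 95% interval -0.16 to 0.41, limma adjusted p = 1). Without control replicate 1, the log2 fold change of *Dusp1* was 0.25, with an unadjusted limma p of 0.0219 and an adjusted p of 0.703. *Zfp36* was at 5.81, 5.23 and 4.79 FPKM in controls and at 5.43, 4.44 and 4.46 FPKM in mutants. Its mutant mean was 90.6% of the control mean (log2 fold change -0.12, 95% interval -0.41 to 0.17), and the mutant was below the control in each same-numbered pair (log2 differences -0.082, -0.20 and -0.084).

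**Figure D3:**
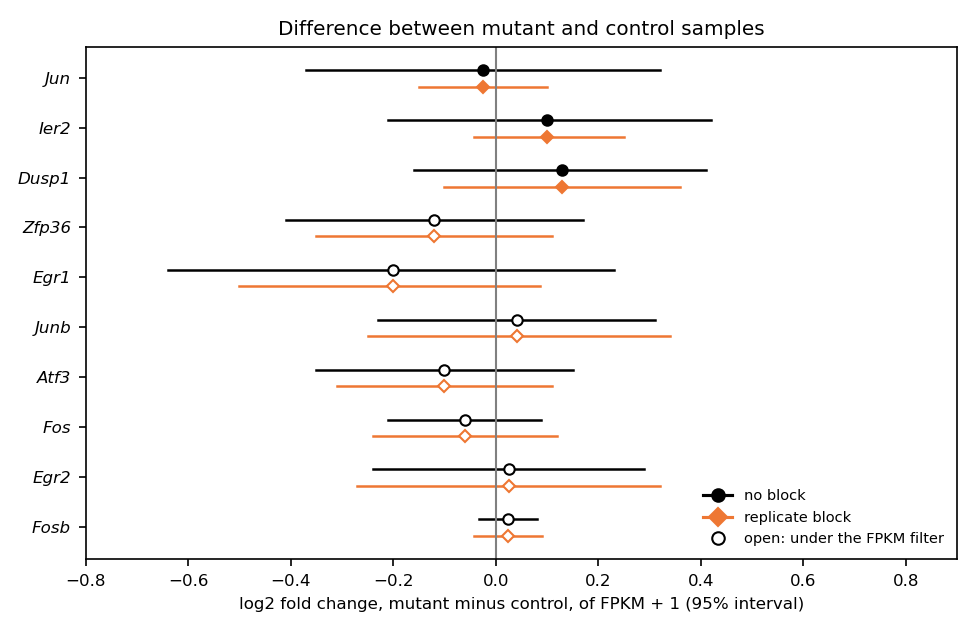
Log2 fold change of FPKM + 1, mutant minus control (x axis), for each immediate early gene (y axis), with lines for the 95% interval. Black circles are the fit without a block and orange diamonds the fit that has the replicate number as its block, and open symbols are genes under the FPKM filter; every interval holds 0.

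The intervals set how large a difference could have been missed. On the scale of FPKM + 1, they reached from 0.774 to 1.25 times the control for *Jun*, from 0.863 to 1.34 times for *Ier2* and from 0.898 to 1.33 times for *Dusp1*. For *Egr1* they reached from 0.641 to 1.17 times. With a pseudocount of 0.1, which lets low genes show more of their relative difference, the log2 interval was -0.57 to 0.33 for *Fos*. It was -0.23 to 0.56 for *Fosb*, -0.73 to 0.35 for *Atf3* and -0.84 to 0.29 for *Egr1*. Differences within these bounds remain compatible with the values of 3 samples a group, and exact permutation of 3 against 3 samples cannot give a p below 0.1. The median log2 fold change was 0.10 over the 3 tested genes, beside 0.0057 over all genes tested, and -0.0002 over all 10 without the filter, beside -0.0014 over all detected genes.

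In part of the set the values followed the replicate number. In *Fosb*, *Jun*, *Ier2* and *Zfp36*, both first replicates were above the other 4 samples, which is 4 of 10 genes, beside 18.4% of the genes tested and 14.7% of all detected genes. In 0 of 10 were both first replicates the lowest, beside 34.7% of the genes tested and 19.3% of all detected genes. *Fos*, *Atf3*, *Junb*, *Egr1*, *Egr2* and *Dusp1* showed neither pattern. Among the tested genes the median ratio of the highest to the lowest sample was 1.28, and the 3 tested members had a median of 1.36.

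Heat shock genes are another group that answers to stress and handling, and most of those tested were arranged the other way. Of their 10 tested members, 7, including *Hspa8* and *Hsp90aa1* (named after their values were seen), had both first replicates lowest (background 34.7%), and 0 had them highest. Their summed level was 2792 and 2783 FPKM in control and mutant replicate 1, and 3702 to 4071 FPKM in the other 4 samples. The highest values in that sum were those of *Hsp90ab1* (991 to 1506 FPKM) and *Hspa8* (800 to 1197 FPKM). The tested *Hspb1*, *Bag3* and *Hspe1*, and the stress-induced *Hspa1a* and *Hspa1b* under the filter, showed neither pattern. These genes were also named after their values were seen. *Jun* and *Ier2* were thus high in the samples in which 7 of the 10 tested heat shock genes were lowest. What sets the first replicates apart was not tested.

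**Figure D4:**
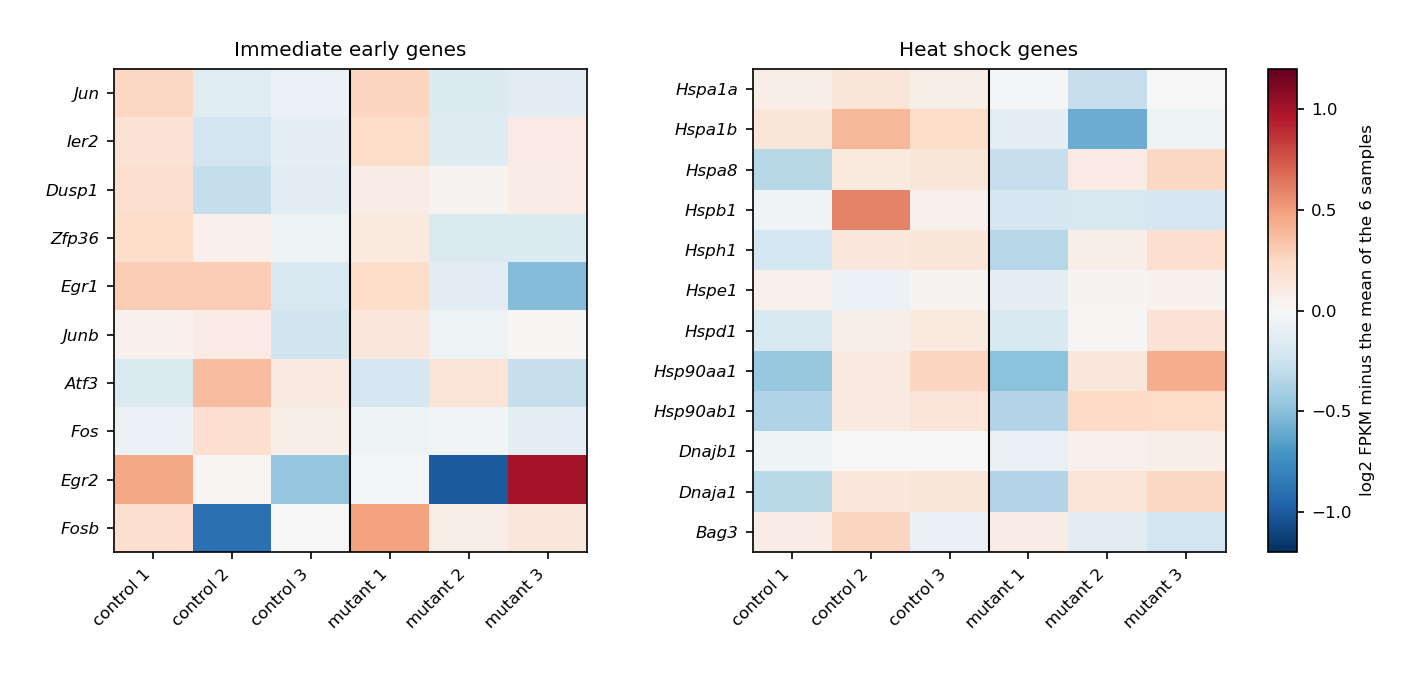
Log2 FPKM of each gene minus its mean over the 6 samples (colour, blue for lower and red for higher), for the 10 immediate early genes (left) and 12 heat shock genes (right), with samples in columns and a line between controls and mutants. *Jun* and *Ier2* are red in both first replicates, where most heat shock genes are blue, and the strongest colours of the left panel are in *Egr2* and *Fosb*, the genes with the lowest FPKM.

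The wider response was read from 4 further lists with 75 genes, all present in the table. Of these, 57 passed the filter, and 2 of the 57 (3.51%, beside the background of 1.66%) had an unadjusted p under 0.05, in opposite directions and with an adjusted p of 1. Of the 33 other immediate early genes, 19 were tested and 0 had an unadjusted p under 0.05 in either direction, with a median log2 fold change of -0.018. The largest differences were in *Nr4a2*, a nuclear receptor induced by many stimuli, and *Klf4*, a zinc finger factor. *Nr4a2* was at 7.17, 3.75 and 4.67 FPKM in controls and at 7, 5.96 and 5.8 FPKM in mutants (log2 fold change 0.26, 95% interval -0.20 to 0.72). *Klf4* was at 12.9, 17.5 and 13.9 FPKM in controls and at 13, 13.9 and 11.5 FPKM in mutants (log2 fold change -0.19, 95% interval -0.49 to 0.11). The groups overlapped for both. Without control replicate 1 the log2 fold change of *Nr4a2* was 0.48, with an unadjusted limma p of 0.00748 and an adjusted p of 0.703, and without control replicate 2 it was 0.089. That of *Klf4* was -0.066 without control replicate 2. *Cyr61*, a matrix protein and target of SRF and YAP, was the only tested gene of that list without overlap, 1 of 19 beside 5% of all genes tested (13.8 to 14.4 FPKM in controls, 12 to 13.7 FPKM in mutants, log2 fold change -0.10, limma adjusted p = 1). It was singled out after its values were seen.

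The kinases and factors that act upstream were all expressed. All 18, among them *Srf* and *Creb1* (named here for their roles), passed the filter, and 0 of 18 had an unadjusted p under 0.05, with a median log2 fold change of -0.016. *Mapk8*, which encodes the kinase JNK1 that phosphorylates Jun, was at 36.7, 38.7 and 38.1 FPKM in controls and at 35.4, 44 and 46.1 FPKM in mutants (log2 fold change 0.13, 95% interval -0.12 to 0.39). *Mapk8* had a log2 fold change of 0.24 when mutant replicate 1 was left out, with an unadjusted limma p of 0.0168 and an adjusted p of 0.906, and without mutant replicate 3 it was 0.059. *Mkl2*, an SRF coactivator, had a log2 fold change of -0.12 (95% interval -0.46 to 0.21), which was -0.27 without control replicate 1, with an unadjusted limma p of 0.0376 and an adjusted p of 0.709, and -0.025 without control replicate 2. *Elk1*, chosen after its values were seen, was the only one without overlap, 1 of 18 beside 5% of all genes tested. It was at 14.9 to 15.3 FPKM in controls and at 15.4 to 16.1 FPKM in mutants (log2 fold change 0.061, limma adjusted p = 1).

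Of 12 feedback and delayed targets of the MAP kinase pathway, 10 were tested, and 1 had an unadjusted p under 0.05. This was *Dusp4*, a nuclear MAP kinase phosphatase related to *Dusp1*. *Dusp4* was at 24.2, 20.9 and 22 FPKM in controls and at 26.8, 29.8 and 24.8 FPKM in mutants, so that every mutant was above every control. Its log2 fold change was 0.27 (95% interval 0.038 to 0.49, unadjusted limma p = 0.028, adjusted p = 1, exact two-sided permutation p = 0.1, the smallest possible). Over 15 alternatives the log2 fold change of *Dusp4* lay between 0.15 and 0.33, and the unadjusted p stayed under 0.05 in 10. It did not without control replicates 2 or 3 or mutant replicates 1 or 2, each left out alone, nor with the Y-linked covariate, where the log2 fold change was 0.15. The markers of neurons were higher in the same mutant samples, as given above, and their part in this difference was not tested. The median log2 fold change of the list was -0.052. *Ier5l* was at 24.8 and 23.9 FPKM in the first replicates and between 11.8 and 14.7 FPKM in the other 4 samples, and its groups overlapped (log2 fold change 0.11, 95% interval -0.64 to 0.86).

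Of the 12 heat shock genes, 10 were tested and 1, *Hspb1*, which encodes a small heat shock protein, had an unadjusted p under 0.05. *Hspb1* was at 15.2, 23.7 and 16.2 FPKM in controls and at 13.6, 13.7 and 13.6 FPKM in mutants, with every mutant below every control and control replicate 2 well above all others (log2 fold change -0.38, 95% interval -0.75 to -0.008, unadjusted limma p = 0.0464, adjusted p = 1, exact two-sided permutation p = 0.1). Without control replicate 2 the log2 fold change of *Hspb1* was -0.19, and the unadjusted p was over 0.05 then, without any 1 of the mutants, with no filter and with the Y-linked covariate. The summed markers of skeletal muscle and of epithelium, given above, were also highest in control replicate 2, and their part in the values of *Hspb1* was not tested. *Bag3*, a cochaperone, had a log2 fold change of -0.16 (95% interval -0.43 to 0.11), and the median of the list was 0.013. The stress-induced *Hspa1a* and *Hspa1b*, chosen after their values were seen, were under the filter, with every mutant below every control. *Hspa1a* was at 0.851 to 0.898 FPKM in controls and at 0.671 to 0.814 FPKM in mutants. *Hspa1b* was at 1.84 to 2.19 FPKM in controls and at 1.1 to 1.59 FPKM in mutants. In the fit without a filter, the log2 fold change of *Hspa1a* was -0.086 (95% interval -0.24 to 0.068). That of *Hspa1b* was -0.31 (95% interval -0.60 to -0.024). The exact two-sided permutation p was 0.1 for each, the smallest possible. *Hspa1a* and *Hspa1b* are near-identical copies whose reads may have been split between them, so their values are uncertain.

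**Figure D5:**
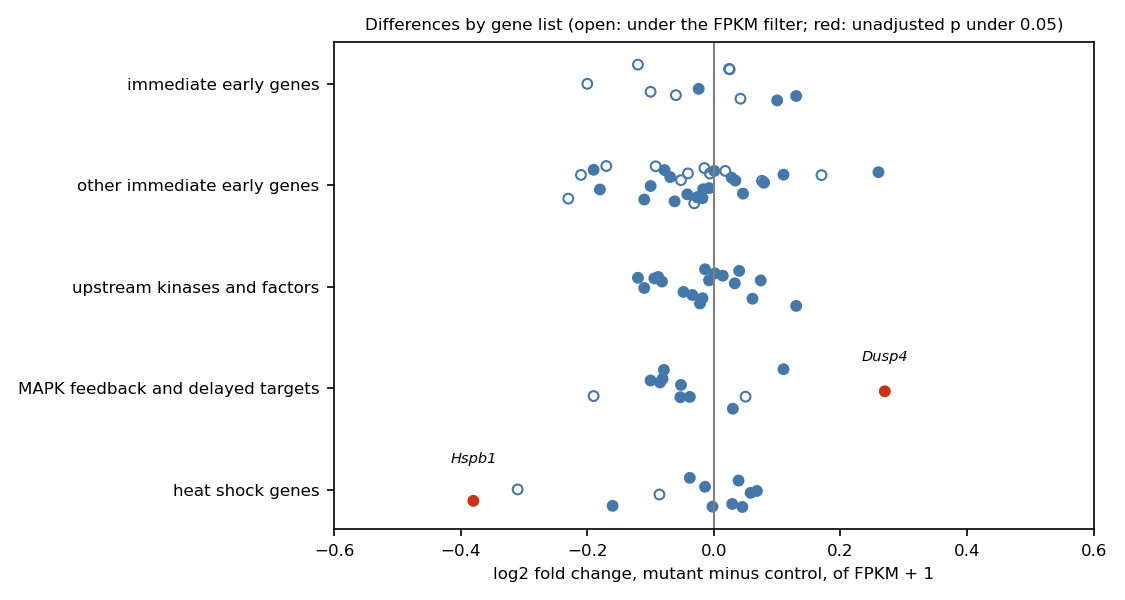
Log2 fold change of FPKM + 1, mutant minus control (x axis), of each gene of 5 lists (rows, with points spread vertically for legibility). Filled points passed the FPKM filter and open points did not. The 2 red points, *Dusp4* and *Hspb1*, are the filled points with an unadjusted p under 0.05, and open points were not coloured by p. The immediate early genes lie between -0.20 and 0.13.

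The genes with the profile most like that of *Fos* were sought among 10058 genes that passed the filter and were not members, by the root mean square difference of log2(FPKM + 1), each gene centred on its own mean, over the 6 samples. The closest were *Camk2g* (0.0126), *Hibadh* (0.0154), *Traf7* (0.0163), *Hexim1* (0.0167) and *D10Jhu81e* (0.0192). The SD of *Fos* itself on this scale was 0.0514, and 116 genes lay within 2 times the difference of *D10Jhu81e*. The likeness on this scale is that of genes that varied little over these samples, each at a far higher level than *Fos* (means of 19.6 to 77.1 FPKM in single groups). The added 1 shrinks the relative differences of *Fos* more than those of genes at such levels, so the likeness depends on it. On log2 FPKM without the added 1, *Fos* deviated from its mean by -0.11 to 0.20.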

How the data were processed

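RNA-Seq was performed on poly(A)+ RNA of 3 control and 3 mutant samples with a stranded library kit and paired-end sequencing. Per the submitters' processing notes and the methods, reads were checked with FastQC 0.11.4, aligned with STAR to GRCm38 and analysed with Cuffdiff. How reads were assigned to genes, with which annotation release and strand setting, is not given in the sources used here. The values that the authors deposited are FPKM, given for each gene in 6 single-sample tables and again in a series table, which did not differ (0 differences). Read counts behind the FPKM values are not in these tables, so the depth is unknown and no counting interval is given. The FPKM of a sample summed to between 528123 and 590174. Low values (under 0.05 FPKM in both samples of a pair) stood at 1 ratio for 16.9% to 31.2% of genes among replicates 2 and 3, but for at most 1.58% between a first replicate and these, so counts could not be rebuilt and only log-scale tests were used.

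Samples were grouped by the genotype in their labels. A gene was kept if its FPKM exceeded 5 in every control or in every mutant, a cutoff that the methods apply to transcripts and that was applied here to gene values. Values were taken to log2(FPKM + 1) and compared with limma 3.58.1 (R 4.3.3) with an intensity trend, no covariates and all 6 samples, with Benjamini-Hochberg adjustment over all genes tested. Intervals are 95% intervals of this fit. Genes under the filter took their values from the same fit on all genes above 0 in any sample. Single genes were also compared by exact permutation of samples (scipy 1.17.1). The fits were tested on simulated data.

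Both groups carry the replicate numbers 1, 2 and 3. Same-numbered samples deviated together from their group means (r = 0.644, 0.258 and 0.513 over 10061 genes, which are not replicates). Control replicate 3 with mutant replicate 2 had r = 0.401, and control replicate 2 with mutant replicate 3 had r = 0.234. These values set the first replicates apart but do not tell the pairs numbered 2 and 3 from each other. The numbers were taken to pair the samples. The pairing of the first replicates comes from these values and that of the others from the numbers alone. Neither labels nor methods tie a number to a litter or day. The block is printed where it bears on a value.

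The 10 genes, the 4 related lists and the marker lists were chosen with earlier results of these data known, as was the term for the first replicates. Of the related lists, the genes named are those with an unadjusted p under 0.05 and the 2 tested genes with the largest absolute log2 fold change per list, and the 5 genes closest to *Fos* in profile. Other names are marked as chosen after their values were seen or for their role, or serve as members of the AP-1 families. The summed FPKM of the remaining marker lists was 80.1 to 110 in controls and 85.5 to 100 in mutants for endothelium, 25.7 to 32.6 and 26.9 to 35.7 for macrophages, and 11.3 to 81 and 40 to 88.4 for choroid plexus. Alternatives were a pseudocount of 0.1, median ratio scaling, quantile normalization, the block, an FPKM filter of 1, no filter, no trend, a term for the first replicates, a covariate from 4 Y-linked genes, and each sample left out in turn. Promoters were taken from RefSeq and 3'UTRs from GENCODE M21.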

Additional observations from a re-analysis of the deposited data

How the results depend on the processing

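Of 139 values of the 10 genes under the alternatives, 133 kept their direction and their side of an adjusted threshold of 0.05, and the 6 that turned came from leaving out a sample. *Jun* turned to 0.091 without control replicate 1, 0.048 without mutant replicate 2 and 0.033 without mutant replicate 3. *Junb* turned to -0.03 without control replicate 3, and *Egr2* to -0.019 without control replicate 3 and -0.084 without mutant replicate 3. With a sample left out, the log2 fold change ranged from -0.15 to 0.091 for *Jun*, from -0.03 to 0.087 for *Junb* and from -0.084 to 0.12 for *Egr2*. The number of the 10 genes with an unadjusted p under 0.05 stayed at 0 except without control replicate 1, where it was 1 (*Dusp1*), a range of 0 to 1. The count of genes with an unadjusted p under 0.05, 167 as reported, was 604 with the replicate block, 611 with a term for the first replicates, 304 with an FPKM filter of 1 and 663 with no filter. Leaving out a sample moved it from 78 (without control replicate 2) to 690 (without control replicate 1). It was 414 without mutant replicate 1 and 110 without mutant replicate 2. Genes past an adjusted p of 0.05 numbered 3 with the term for the first replicates, 0 to 5 with a sample left out (5 without mutant replicate 3) and 0 otherwise. Genes past a log2 fold change of 1 with an unadjusted p under 0.05 were 3 as reported, 6 with the Y-linked covariate, 7 with an FPKM filter of 1, 10 with no filter and 3 to 10 with a sample left out. The Y-linked covariate also moved the share of genes higher in mutants among those with an unadjusted p under 0.05 from 42.5% to 28.4%. Of the other genes named, *Mkl2* turned to 0.017 and *Ier5l* to -0.065 with the Y-linked covariate, and *Ier5l* to -0.045 without control replicate 2, -0.063 without control replicate 3 and -0.14 without mutant replicate 1 (range -0.14 to 0.44 with a sample left out). *Rbfox2* passed the adjusted threshold with the term for the first replicates (adjusted p = 0.030 in limma) and under no other alternative. The block changed no call of the genes named. The cause of these shifts was not tested, beyond the number of genes that a filter admits. The depth behind the FPKM values is unknown, and the genes under 1 FPKM are limited most by it.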
